A study of Mus musculus with 7 samples.

Results

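Hs3st3b1 encodes heparan sulfate 3-O-sulfotransferase 3B1, an enzyme that adds a late and rare sulfate group to heparan sulfate chains. Its messenger RNA was described here together with 9 other genes of the same pathway in alveolar macrophages, which clear particles and surfactant from the air sacs. The 10 genes were taken by symbol from a count table of 27179 genes, and all 10 were found. They are the chain polymerases Ext1 and Ext2, the sulfotransferases Ndst1, Ndst2, Hs2st1, Hs6st1, Hs3st1 and Hs3st3b1, the epimerase Glce and the core protein Sdc4. Hs3st3b1 was singled out for its level and its edgeR result in the comparison of genotypes described here, so its difference is a description and not a test. The same holds for counts over the 10 genes, which share that comparison.

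RNA sequencing was done on sorted alveolar macrophages of C57BL/6 mice aged 4 months, with no treatment named in the labels. There were 4 libraries of wild-type (WT) mice and 3 of mice labelled Cish-/- (KO). Cish encodes a SOCS family protein that restrains cytokine receptor signalling. The labels do not say how the Cish allele was made, whether each library came from a separate mouse, or the sex of the mice, so errors measure the spread between these libraries, which may be technical.

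Heparan sulfate is a sugar chain carried by core proteins of the cell surface and matrix, where it binds growth factors, chemokines and enzymes. EXT1 and EXT2 together lengthen the chain. NDST enzymes then exchange acetyl for sulfate groups, GLCE converts glucuronic to iduronic acid, and the 2-O-, 6-O- and 3-O-sulfotransferases add further sulfates. The 3-O-sulfate is usually the last step: HS3ST1 is known for making the antithrombin binding site of heparin, and the HS3ST3 enzymes for a chain that a herpesvirus glycoprotein binds.

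Total counts per library lay between 30511397 and 34347648 in WT and between 26676988 and 30870607 in KO. Levels are given as CPM (counts scaled to a common library total), using TMM factors. Cish itself had mean levels of 45.5 CPM ± 16.4 in the WT libraries (SD, n = 4) and 12.7 CPM ± 1.73 in the KO libraries (SD, n = 3), without overlap, so reads of Cish remained in every KO library. The adjusted p of Cish was 0.0519 with edgeR and 2.7e-11 with DESeq2. Gene totals cannot tell which exons those reads came from. On the first principal component (42.6% of variance) WT 4 scored 7.27, whereas WT 1 to WT 3 scored -39.4 to -24.1 and KO 18.3 to 43.9. All 10 alveolar macrophage markers were tested, and 8 had higher means in KO. Chil3, the most abundant, averaged 29771 CPM in WT and 59845 CPM in KO with overlap, while Siglecf, a surface receptor used to identify these cells, lay between 521 and 587 CPM in WT and between 372 and 455 CPM in KO.

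Hs3st3b1 lies on the minus strand of chromosome 11, from 63885792 to 63922290 (mm10, GENCODE M21), in 1 annotated transcript of 2 exons, and no other annotated gene overlaps it. Its closest relative Hs3st3a1 lies on the same chromosome, from 64435332 to 64522841 on the plus strand. The RefSeq sequences (GRCm38.p6) of the 250 bases before each start site are shown (8 of the 10 genes, all but Ndst1 and Ext1, have an entry) because the pair encodes closely related enzymes but only Hs3st3b1 had more than 4 reads in any library. The Hs3st3b1 stretch is chr11:63922285-63922534 (minus strand) and the Hs3st3a1 stretch chr11:64435082-64435331 (plus strand). The RefSeq start of Hs3st3b1 lies 6 bases inside the GENCODE transcript, so the last 6 bases of its stretch belong to that transcript. For Hs3st3a1 the RefSeq and GENCODE starts coincide. Distances are counted from the RefSeq starts. Both are written 5′ to 3′ along the gene, and capitals mark matches on either strand to 4 short motifs: the CCAAT box, the GC box with letters GGGCGG, the cyclic AMP response element TGACGTCA and the E-box with letters CACGTG.
Hs3st3b1: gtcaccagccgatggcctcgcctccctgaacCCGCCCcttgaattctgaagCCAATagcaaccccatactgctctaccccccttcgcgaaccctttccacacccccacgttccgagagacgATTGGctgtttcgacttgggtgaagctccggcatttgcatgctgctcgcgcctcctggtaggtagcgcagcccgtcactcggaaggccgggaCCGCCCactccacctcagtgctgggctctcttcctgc
Hs3st3a1: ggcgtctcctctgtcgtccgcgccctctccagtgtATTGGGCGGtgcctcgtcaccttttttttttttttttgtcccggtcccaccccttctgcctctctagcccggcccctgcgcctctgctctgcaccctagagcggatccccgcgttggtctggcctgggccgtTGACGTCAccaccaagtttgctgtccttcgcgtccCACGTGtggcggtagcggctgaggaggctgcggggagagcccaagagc
The Hs3st3b1 stretch was 62.4% G or C with 17 CpG pairs, and that of Hs3st3a1 64% with 20, against medians of 52.4% and 6 over the 32851 promoters of the table. Upstream of Hs3st3b1, CCAAT matched 2 times, starting 199 and 129 bases before the start site, and GGGCGG 2 times, at 219 and 37 bases. Of all promoters in the table, 33.8% held CCAAT and 32.7% held GGGCGG in the same 250 bases. Upstream of Hs3st3a1, CCAAT started at 215 and GGGCGG at 212 bases, where the matches overlap, while TGACGTCA started at 83 bases (held by 1.55% of promoters) and CACGTG at 48 bases (6.02%). TTCNNNGAA, the letters bound by STAT factors, matched neither stretch and 7.02% of all promoters. No match was found in either for the AP-1 letters TGANTCA (6.75% of promoters), for TATAAA (12.4%), for the PU.1 letters GAGGAAGT (2.44%) or for the NF-kB motif (0.356%).

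Hs3st3b1 was low in WT and several times higher in every KO library. Its level was 0.392, 1.00, 0.604 and 1.19 CPM in WT 1 to WT 4, from 14, 32, 19 and 38 reads. In KO 1 to KO 3 it was 13.9, 8.04 and 7.10 CPM, from 422, 207 and 193 reads. The groups did not overlap, and the lowest KO library stood 5.97-fold above the highest WT library, WT 4. The genotypes had mean levels of 0.796 CPM ± 0.364 in the WT libraries (SD, n = 4) and 9.69 CPM ± 3.70 in the KO libraries (SD, n = 3), a ratio of 12.2. The log2 fold change fitted by edgeR was 3.61 (SE 0.38, 95% interval 2.75 to 4.47), the tenth highest of the 12759 genes tested. The edgeR adjusted p of 0.00948, among the values that chose the gene, was the seventh smallest; of the 11 genes called, the last inside the 0.05 threshold was Mmp8 (0.0427) and the first outside was Cish (0.0519). In bulk RNA, more cells with the transcript and more transcript per cell cannot be told apart.

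**Figure D1:**
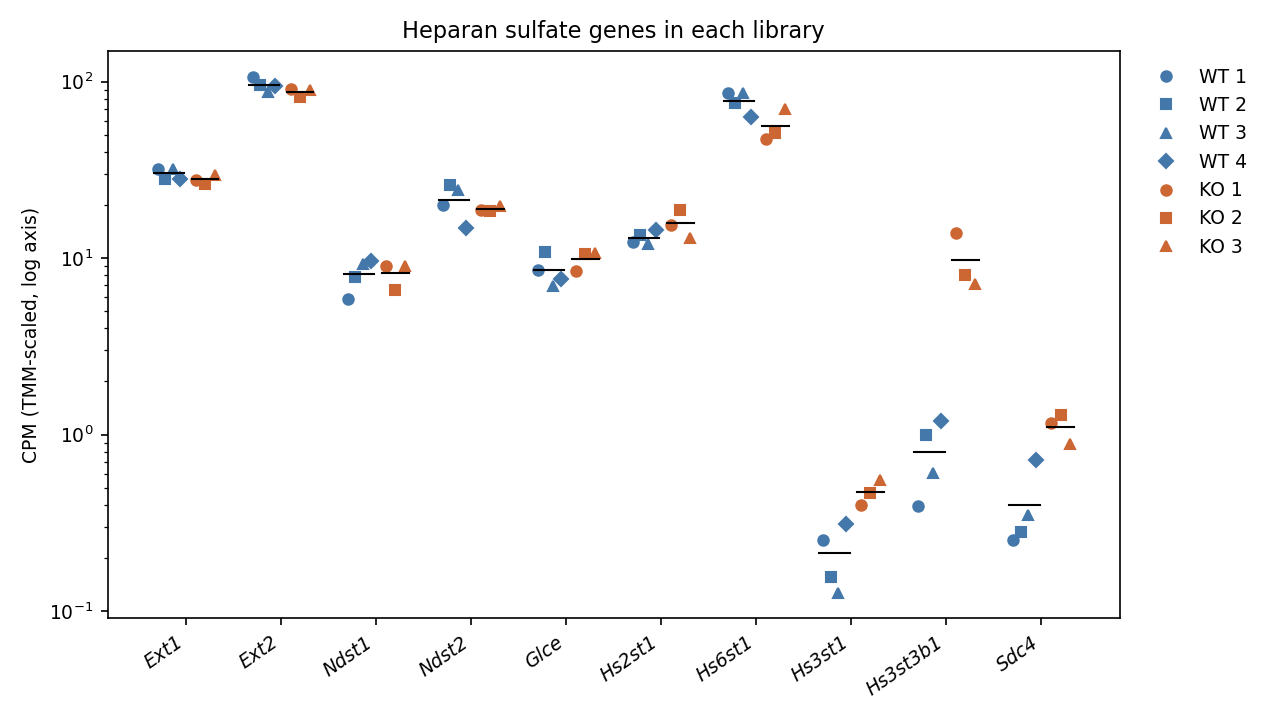
Level of each of the 10 heparan sulfate genes in every library, in CPM on a log axis. Blue symbols are the 4 WT and orange symbols the 3 KO libraries, and black lines are group means. Hs3st3b1 lies between 0.392 and 1.19 CPM in WT and between 7.10 and 13.9 CPM in KO.

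Of the 10 genes edgeR called 1, Hs3st3b1, against 0.0862% of all genes tested (11 of 12759) and 0.0470% that were called higher in KO. The next smallest adjusted p among the 10 was 0.136, of Sdc4. DESeq2 also called only Hs3st3b1 of the 10, against 6.11% of the 12686 genes to which it gave an adjusted p. The CPM of the groups did not overlap for 3 of the 10 (Hs3st3b1, Hs3st1 and Sdc4), all higher in KO. Among all genes tested, 16.0% did not overlap with 7.23% higher and 8.72% lower in KO. The genes were chosen from this comparison, so these counts only describe them. All 10 passed the filter on low counts, but Hs3st1 was over its cutoff of 0.324 CPM in 0 of 4 WT and 3 of 3 KO libraries, and Sdc4 in 2 of 4 WT and 3 of 3 KO. Hs3st1 thus entered the test only through the genotype in which it was higher, and Sdc4 would not have entered on its WT libraries.

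Among the 3-O-sulfotransferases, Hs3st3b1 made up most reads in every KO library. It had 40.0% of the family's reads in WT 1 (14 of 35, exact binomial 95% interval 23.9 to 57.9) and 69.6% in WT 2 (32 of 46, 54.2 to 82.3), the lowest and highest WT shares. In KO the shares were 95.7% (422 of 441, 93.4 to 97.4), 93.2% (207 of 222, 89.1 to 96.2) and 90.2% (193 of 214, 85.4 to 93.8). These intervals cover counting error only. Every KO share was above every WT share, and the other members of the family were near the limit of detection in both genotypes. Hs3st1 (chromosome 5, 39613935 to 39755475) had 9, 5, 4 and 10 reads in WT and 12, 12 and 15 in KO, or 0.212 CPM ± 0.0857 (SD, n = 4) and 0.471 CPM ± 0.0778 (SD, n = 3), with a log2 difference of 1.13 (SE 0.43, 95% interval 0.17 to 2.09). Hs3st6 went the other way without overlap, with 11, 7, 17 and 7 reads in WT and 2, 1 and 5 in KO, too few to be tested. Hs3st2 had at most 1 read in any library. Hs3st4 and Hs3st5 had none, which allows up to 0.0839 to 0.117 CPM (3 counts) depending on the library.

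Hs3st3a1 had 0, 2, 3 and 3 reads in WT and 4, 1 and 1 in KO. The transcripts of Hs3st3b1 and Hs3st3a1 share an identical stretch of 401 bases, and 416 of the 4862 windows of 50 bases in the Hs3st3b1 transcript (8.56%) occur in that of Hs3st3a1. Reads from the shared stretch cannot be assigned to one of the pair, and how such reads were handled is not given in the sources used here. With Hs3st1 the longest shared run was 13 bases and no window was shared.

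The nearest tested genes on either side of Hs3st3b1 were also higher in KO without overlap, by much less. Of all genes tested, 7.23% were higher without overlap. For both neighbours the lowest KO library stood only 1.03-fold above the highest WT library. Cox10, which encodes a mitochondrial enzyme needed for heme A, lies 40337 bases away and had 18.8, 16.3, 15.7 and 18.9 CPM in WT and 26.7, 24.5 and 19.5 in KO. Its log2 fold change was 0.44 (SE 0.13) with an edgeR adjusted p of 0.146. Pmp22, a peripheral myelin membrane protein gene 726245 bases away on the other side, had 1.12, 1.66, 2.48 and 4.69 CPM in WT and 4.82, 6.80 and 4.89 in KO. The fitted change was 1.15 on the log2 scale (SE 0.42), with an edgeR adjusted p of 0.205. WT 4 stood just below the KO libraries for Pmp22, and without WT 4 Pmp22 passed edgeR (1.65, adjusted p 0.0457). That fit called 284 genes, and leaving out the WT library nearest to KO widens the gap by construction, so the pass supports nothing.

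The genes that build and first modify the chain had overlapping levels in WT and KO, with intervals that include 0. The polymerase gene Ext2 (chromosome 2, 93661028 to 93822568, overlapped by Alx4 on the opposite strand) had 107, 95.7, 87.2 and 94.7 CPM in WT and 90.6, 81.8 and 89.1 in KO, with a log2 fold change of -0.14 (SE 0.09, 95% interval -0.34 to 0.06). Ext1 (chromosome 15, 53064038 to 53346159), its partner, had mean levels of 30.2 CPM ± 2.28 in the WT libraries (SD, n = 4) and 27.9 CPM ± 1.73 in the KO libraries (SD, n = 3) (-0.11, -0.32 to 0.10). The genotypes overlapped for both genes, with 1 KO library of Ext1 and 2 of Ext2 inside the WT range.

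Ndst1 and Ndst2, which start sulfation, also overlapped. Ndst1 (chromosome 18, 60684494 to 60748650) had 5.87, 7.85, 9.29 and 9.61 CPM in WT and 8.98, 6.57 and 9.01 in KO, with a log2 difference of 0.01 (SE 0.20, 95% interval -0.45 to 0.46). With library sizes alone it was -0.04. It overlaps the ribosomal protein gene Rps14 on the opposite strand, and the library kit does not mark strand. Ndst2 (chromosome 14, 20723730 to 20734562) had 19.9, 26, 24.2 and 14.8 CPM in WT and 18.7, 18.4 and 19.8 in KO (-0.16, -0.56 to 0.24). Its WT values spread on both sides of the KO values, with WT 4 lowest of all. Ndst3 and Ndst4, the other family members, had at most 2 reads in any library.

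Glce (chromosome 9, 62057248 to 62122655) had 8.59, 10.8, 6.97 and 7.64 CPM in WT and 8.45, 10.6 and 10.7 in KO, with a log2 difference of 0.22 (SE 0.18, 95% interval -0.18 to 0.62). Hs2st1 (chromosome 3, 144429706 to 144570181), whose product sulfates the acid that GLCE makes, had 12.4, 13.5, 12.0 and 14.4 CPM in WT and 15.5, 18.6 and 13.0 in KO (0.27, -0.05 to 0.59). All 3 KO libraries of Glce and 1 of Hs2st1 lay inside the WT range.

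Hs6st1, the only 6-O-sulfotransferase with more than 1 read in a library, had the highest level per length among the sulfotransferase genes of the 10 and a lower mean in KO. It lies on chromosome 1, from 36068400 to 36106446, where the antisense gene Gm37335 overlaps it. It had 86.6, 75.4, 86.3 and 62.9 CPM in WT and 47.3, 51.1 and 69.8 in KO. KO 1 and KO 2 lay below every WT library, while KO 3 lay above WT 4. The log2 fold change was -0.47 (SE 0.16, 95% interval -0.83 to -0.12) with an edgeR adjusted p of 0.178. Without WT 4 and KO 3 it was -0.75 and passed edgeR (adjusted p 0.0161). That fit leaves out the libraries nearest the other genotype, which widens the gap by construction (590 genes called against 11), so the pass supports nothing.

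Sdc4 encodes syndecan 4, a transmembrane core protein that carries the chains at sites of cell adhesion (chromosome 2, 164424247 to 164443887). It had 9, 9, 11 and 23 reads in WT and 35, 33 and 24 in KO, or 0.252, 0.281, 0.350 and 0.720 CPM in WT and 1.16, 1.28 and 0.883 CPM in KO. The groups did not overlap, though WT 4 stood at 23 reads and KO 3 at 24. The log2 fold change was 1.46 (SE 0.42, 95% interval 0.52 to 2.41). With WT 4, the WT library nearest to KO, left out, Sdc4 passed edgeR at 1.90 (adjusted p 0.0447) in a fit that called 284 genes. WT 4 was the highest WT library for Sdc4, Hs3st1 and Hs3st3b1, the 3 genes of the 10 without overlap.

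Set in order of level per length (CPM per kb of exon, GENCODE M21), the genes kept nearly the same order in both genotypes apart from Hs3st3b1. In WT, Hs6st1 (14 ± 2.03, SD, n = 4) and Ext2 (13.1 ± 1.11) overlapped at the top, followed by Ndst2 (4.67) and Ext1 (3.73), which also overlapped. Hs2st1 (1.59), Glce (1.25) and Ndst1 (0.985) came next, each overlapping its neighbour. Hs3st3b1 stood at rank 8, at 0.162 ± 0.074 CPM per kb, within the range of Sdc4 (0.157 ± 0.085), and Hs3st1 came last (0.0951). In KO, Hs3st3b1 stood at rank 5, at 1.97 ± 0.754 CPM per kb (SD, n = 3), level with Hs2st1 (1.91 ± 0.346) and below Ext1 (3.45 ± 0.214). It was then above Ndst1 (0.989 ± 0.169) in every KO library, whereas in WT it was below Ndst1 in every library. The annotation behind the counts is not given in the sources used here. The lengths may differ from those the reads were counted on.

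**Figure D2:**
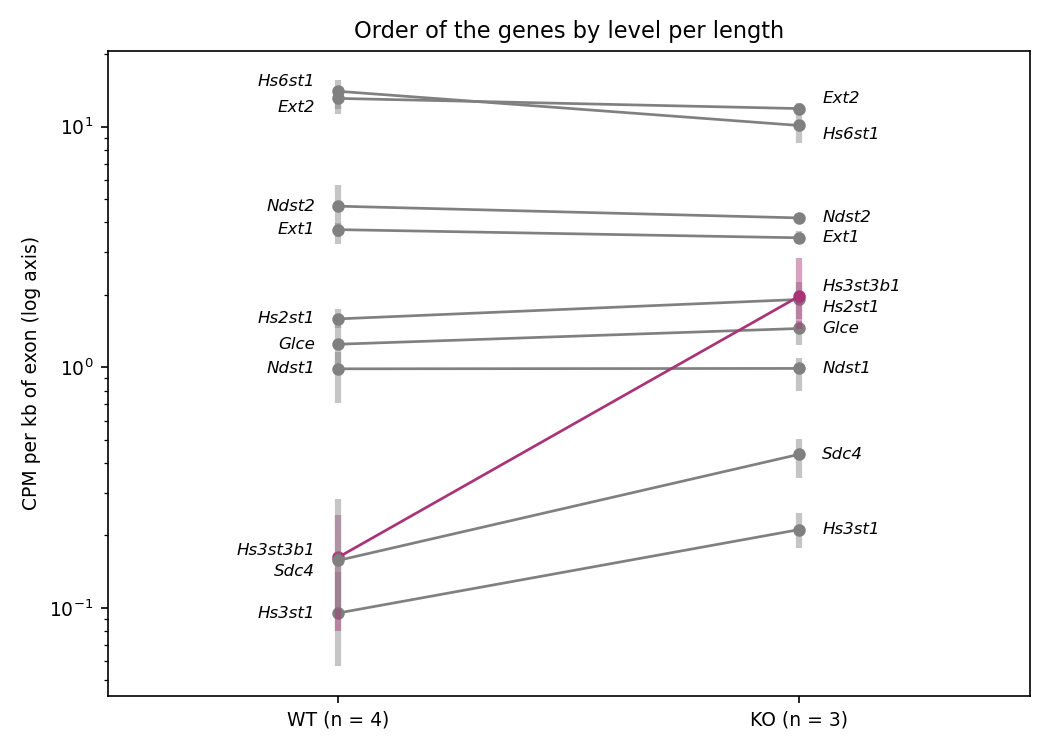
Mean level per length of the 10 genes, in CPM per kb of exon on a log axis, in WT (4 libraries) and KO (3 libraries). Dots are means, thick bars run from the lowest to the highest library, and lines join the means of a gene. Hs3st3b1 (purple) moves from 0.162 to 1.97 CPM per kb, while the lines of the other 9 genes change less.

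The rest of the pathway was described with 10 lists by role (the chain polymerases, sulfotransferases and core proteins among them), of which 65 genes were in the table and 45 were tested, 35 of them outside the 10. Of these 35, edgeR called 0, and 6 had an unadjusted p below 0.05 (18.0% of all genes tested had one). DESeq2 called 2 of the 35, Sulf2 and Slc35d2, both lower, against 6.11% of all genes. The groups did not overlap for 4 of the 35, against 16.0% of all genes: Papss2, higher in KO, and Sulf2, Slc35d2 and Papss1, lower in KO. By direction 19 were higher in KO and 16 lower, with a median log2 fold change of 0.04 against 0.00 over all genes tested; the median was -0.04 without KO 1, -0.01 without WT 4, and -0.01 with library sizes only or with a filter of 5 CPM. Medians by list count the members in it (Ext1 and Ext2 among the polymerases, Sdc4 among the core proteins). The lists of the linker, the polymerases, the sulfate donor and precursors, and lysosomal breakdown had medians between -0.08 and 0.11. That of the core proteins was 0.69. The most abundant core protein genes, Srgn (0.11), Sdc3 (0.46) and Agrn (-0.01), lay below 0.69.

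Of the 6 tested linker genes, which make the stub on which the chain starts, edgeR called 0 and 4 were lower. B3gat3, the most abundant, which adds the last sugar of the stub, had mean levels of 42.6 CPM ± 5.53 in the WT libraries (SD, n = 4) and 42.4 CPM ± 3.20 in the KO libraries (SD, n = 3). Xylt2, a xylosyltransferase that starts the linker, had 11.7 and 9.58 CPM, a fitted log2 difference of -0.29 (SE 0.18; adjusted p 0.419 in edgeR). Extl2, a polymerase relative, had 21.4 and 23.2 CPM (0.12, edgeR adjusted p 0.515).

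Sulf2 encodes an extracellular sulfatase that removes 6-O-sulfates from finished chains. It had 375, 432, 340 and 367 CPM in WT and 272, 255 and 327 in KO, without overlap. The log2 fold change was -0.41 (SE 0.12), with adjusted p-values of 0.132 (edgeR) and 0.0221 (DESeq2). Hs6st1, whose product adds the group that SULF2 removes, had a fold change of the same sign (-0.47), with overlap between genotypes. Of the 12759 genes tested, 6311 had a negative log2 fold change. A link between Sulf2 and Hs6st1 was not tested. Hpse, the gene of the chain-cutting enzyme heparanase, had 0.415 and 0.869 CPM with overlap.

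Core protein genes were dominated by Srgn and Sdc3 in both genotypes. Of 8 tested, Sdc4 included, 7 were higher in KO and edgeR called 0; Sdc3 and Sdc4 had an unadjusted p below 0.05. Srgn, the secretory granule proteoglycan serglycin, which often carries other chains in myeloid cells, had mean levels of 221 CPM ± 40.0 in the WT libraries (SD, n = 4) and 238 CPM ± 36.8 in the KO libraries (SD, n = 3). Sdc3, the most abundant syndecan gene here, had 136, 129, 103 and 169 CPM in WT and 227, 155 and 170 in KO, so that KO 2 lay below WT 4 (log2 fold change 0.46, SE 0.18, edgeR adjusted p 0.222). Sdc1, Sdc2, Gpc1 and Gpc3 had mean levels below 1 CPM in both genotypes.

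Among genes that supply activated sulfate and sugars, 7 of 10 tested were lower and edgeR called 0. Slc35d2, a Golgi transporter of nucleotide sugars, had 14.2, 14.3, 13.0 and 11.8 CPM in WT and 8.12, 9.05 and 9.96 in KO, without overlap (log2 fold change -0.56, SE 0.13). edgeR gave an adjusted p of 0.0975 and DESeq2 one of 0.00595. Ugp2, which makes UDP-glucose, had 239 CPM in both genotypes. Papss2, an enzyme that makes the sulfate donor, was chosen after its values were seen. It had 2, 2, 0 and 11 reads in WT and 15, 18 and 21 in KO (2.47, SE 0.77, edgeR adjusted p 0.160). It was over the filter cutoff in 1 of 4 WT and 3 of 3 KO libraries, so it was tested only through KO. Without WT 4, the WT library nearest to KO, it passed edgeR (3.89, adjusted p 0.0366) in a fit that called 284 genes. No WT library of that fit was over 2 reads. Papss1, the far more abundant enzyme of the same step, had 42.0 and 35.6 CPM, lower in KO without overlap (-0.24, SE 0.09, edgeR adjusted p 0.224).

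Of 8 tested lysosomal enzymes that break the chain down, 6 were higher and edgeR called 0. Arsg, the lysosomal sulfatase that acts on 3-O-sulfated glucosamine, had 18.3, 12.3, 15.8 and 14.7 CPM in WT and 25.3, 20.8 and 17.8 in KO. KO 3 lay just below WT 1, and the log2 fold change was 0.48 (SE 0.16, edgeR adjusted p 0.178).

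**Figure D3:**
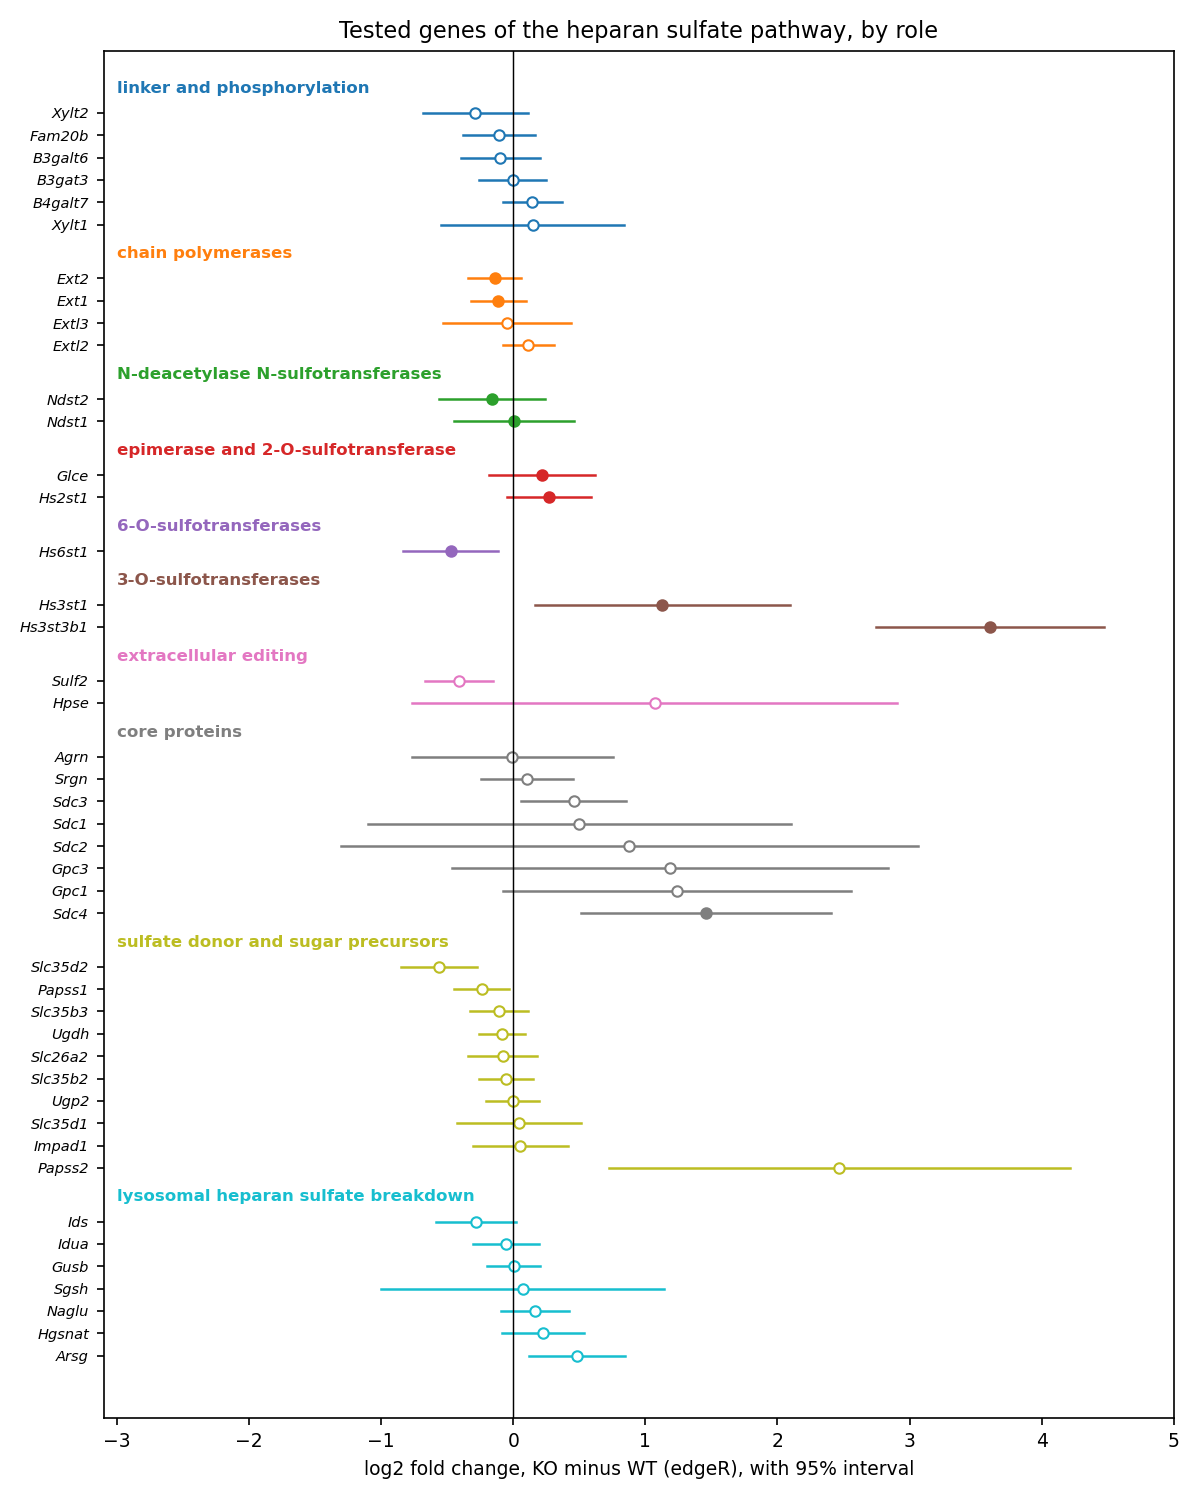
Log2 fold change of tested heparan sulfate genes (KO minus WT, edgeR) on the horizontal axis, with 95% intervals as bars, grouped and coloured by role. Filled dots are the 10 genes described first and open dots other genes of the pathway. Hs3st3b1 lies at 3.61, and the wide intervals belong to genes with few reads such as Papss2 and Sdc2.

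Chondroitin and dermatan sulfate chains start from the same linker and were taken as a comparison. Of 9 tested enzyme genes, 5 were higher and 4 lower, the median log2 fold change was 0.07, and neither edgeR nor DESeq2 called any; 2 had an unadjusted edgeR p below 0.05. Dse, the dermatan sulfate epimerase, had 93.4 and 112 CPM (0.26, SE 0.11, edgeR adjusted p 0.256). Chst12, a chondroitin 4-O-sulfotransferase, had 46.6 and 38.4 CPM (-0.28, SE 0.10, edgeR adjusted p 0.199). Of 8 genes for proteins reported to bind 3-O-sulfated chains, 5 were tested, all 5 were higher (median 0.33) and edgeR called 0, with Ager and Stab1 at an unadjusted p below 0.05. The most abundant, Ppib, which encodes cyclophilin B, had 79.4 CPM in WT and 83.4 CPM in KO. Stab1, a scavenger receptor gene, had 7, 3, 3 and 1 reads in WT and 16, 11 and 9 in KO (1.98, SE 0.54, edgeR adjusted p 0.124). It was over the filter cutoff in 0 of 4 WT and 3 of 3 KO libraries, so it could be tested only where higher. Ager, a receptor gene also high in alveolar type 1 epithelium, had 30, 104, 22 and 90 reads in WT and 188, 312 and 32 in KO, with KO 3 inside the WT range.

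Transcripts typical of other lung cells were also counted, since several of the heparan sulfate genes had few reads. The summed level of 6 endothelial markers lay between 11.7 and 15.9 CPM in WT and between 17.6 and 31.6 CPM in KO, without overlap, and all 5 tested had higher means. Of these, Cdh5 and Kdr passed the filter only through the KO libraries. Most of the sum was Vwf (9.71 to 12.8 CPM in WT, 10.4 to 22.8 in KO). Pecam1 lay between 0.445 and 1.47 CPM in WT and between 1.62 and 4.29 in KO, and Cdh5 between 0.0318 and 0.188 CPM in WT and between 0.583 and 0.924 in KO. KO 1 was the highest library for this sum (31.6 CPM) and for Hs3st3b1. The sum was lower in KO 2 (17.6 CPM) than in KO 3 (22.9 CPM), as were Vwf (10.4 and 19.2 CPM) and Cdh5. Pecam1 (2.45 and 1.62 CPM), Cldn5 (3.07 and 0.809), Kdr (0.738 and 0.404) and Emcn (0.389 and 0.184) were higher in KO 2, like Hs3st3b1. The part of endothelial transcripts in the values of Hs3st3b1, Sdc4, Hs3st1, Stab1 and Papss2 was not tested.

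T, NK and innate lymphoid markers summed to 3.34 to 7.13 CPM in WT and 6.77 to 19.5 in KO, with 7 of 7 tested higher and KO 1 highest, and those of fibroblasts and mural cells to 2.48 to 9.42 and 4.27 to 14.2. Neutrophil markers summed to 7.76 to 20.2 CPM and 13.3 to 35.2, with Ly6g at 0 in every library. Monocyte and interstitial macrophage markers summed to 9.39 to 21.1 CPM and 11.6 to 27.6, dendritic cell markers to 4.53 to 6.23 and 3.42 to 8.13, and B cell markers to 5.16 to 17.1 and 6.21 to 29.9. Epithelial markers summed to 194 to 379 CPM in WT and 176 to 197 in KO; in WT most of this was Epcam (209 CPM, against 43.8 CPM in KO). The other 6 of the 7 tested epithelial markers had higher means in KO, among them Sftpc (26.7 and 50.6 CPM), Scgb1a1 (6.94 and 21.0 CPM) and Ager (1.90 and 6.50 CPM), each with overlap. Eosinophil, and mast cell and basophil markers stayed below 1 CPM in sum, with Prg3, Tpsb2 and Ms4a2 at 0. Alveolar macrophage markers summed to 21797 to 57741 CPM in WT and 47305 to 80750 in KO, mostly Chil3. Of the 56 tested markers in all these lists edgeR called 0. DESeq2 called 7 of them, against 6.11% of the 12686 genes to which it gave an adjusted p. Higher in KO were Pecam1, Cdh5 and Cldn5 (endothelial list), Klrb1c and Il7r (lymphoid list) and Mrc1. Siglecf was lower.

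The 5 genes with the profile nearest to Hs3st3b1 over the 7 libraries were found by the root mean square difference of log2 CPM, each gene centred on its own mean. They were Tmem171 (difference 0.490), Lhx2 (0.541), Cd200r2 (0.571), Gm4951 (0.584) and Gm8210 (0.612), of which edgeR called Gm4951 (adjusted p 0.0288) and Gm8210 (adjusted p 6.83e-06). Gm4951 was no longer called without WT 1, WT 2, WT 3, KO 1 or KO 2 (adjusted p 0.0527 to 0.126). All 5 were higher in every KO library than in any WT library, as were 7.23% of all genes tested. KO 1 was the highest KO library for Hs3st3b1 and all 5, and WT 4 the highest WT library for Hs3st3b1 and all but Gm8210. Lhx2, a LIM homeobox transcription factor gene, had 7, 9, 6 and 13 reads in WT and 207, 54 and 31 in KO. Cd200r2, of the CD200 receptor family, had 1.51, 1.84, 1.91 and 3.04 CPM in WT and 35.5, 15.4 and 6.69 in KO. Tmem171, a transmembrane protein gene, had at most 2 reads in WT and 36, 11 and 10 in KO. Its WT libraries were all below the filter cutoff of 0.324 CPM, as were those of Lhx2 except WT 4. Every KO library of both genes was above it. Tmem171 and Lhx2 were thus tested and ranked only through the genotype in which they were higher. Gm8210, a predicted gene with 3.50 to 3.66 CPM in WT and 24.0 to 27.5 in KO, varied least within each genotype. Whether it holds reads of the related ribosomal protein gene Rpl29 was not tested. The log2 fold change was 2.82 for Gm8210 and -3.22 for Rpl29, both called by edgeR. The 5 genes were ranked on the same libraries, so their gap between genotypes and the shared highest libraries follow largely from the ranking. No test applies to the ranking.

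**Figure D4:**
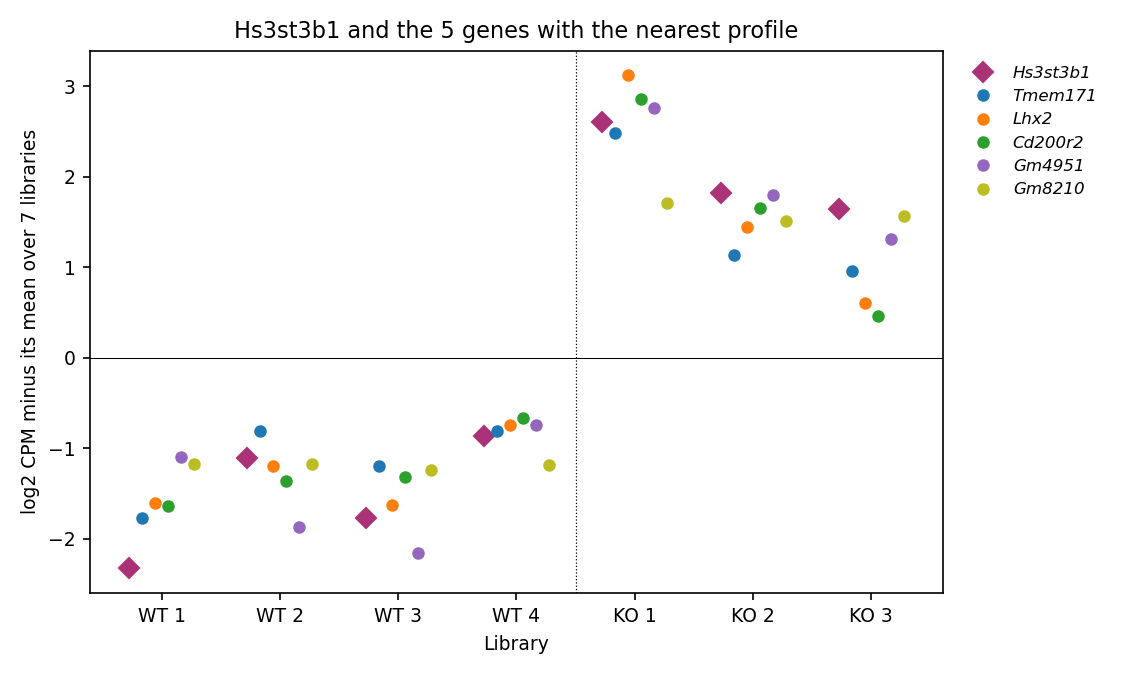
Log2 CPM of Hs3st3b1 (purple diamonds) and of the 5 genes nearest to it in profile (circles) in each of the 7 libraries, minus the gene's mean over the libraries. Hs3st3b1 lies between -2.33 and -0.87 in WT and between 1.64 and 2.61 in KO, and all 6 genes are below 0 in WT and above 0 in KO.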

How the data were processed

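The deposited table, per its file name, holds raw counts of reads per gene made with Rsubread, and the labels' protocols name Nextera XT libraries, which do not mark strand. The submitters' processing notes name mm10 and DESeq2 (annotation, aligner settings and handling of multiply matching reads: not given in the sources used here). Libraries were grouped by the genotype in their labels. The 1036 entries without a symbol, 0.376% to 0.424% of each library's counts, were left out. In R 4.3.3, edgeR 4.0.16 was run on all genes kept by filterByExpr (12759), with TMM factors and a quasi-likelihood test of genotype, two-sided; p-values were adjusted by Benjamini-Hochberg over all of them, and an adjusted p below 0.05 was called. CPM values use the TMM factors, and log2 CPM for profiles a prior count of 2. No molecular identifiers are named, so the exact binomial intervals and the limits at 0 reads cover counting error only; edgeR intervals include the spread between libraries. Lengths and positions are from GENCODE M21.

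Members and lists were chosen with earlier results of these data known. The text names the members, Cish, the 3-O-sulfotransferases, in each list the most abundant tested non-member, the one with the smallest edgeR p and any called gene, the 5 nearest profiles and the nearest tested gene on each side of Hs3st3b1. A gene that this rule names is not reported here. Papss1, Papss2, Ager, Hpse, Gpc3 and genes with few reads were added after values were seen. Alternatives were other scaling factors, DESeq2 1.42.0, limma 3.58.1 voom, 2 other filters, the replicate number as a block, each library left out, and WT 4 and KO 3 left out together because they lie nearest the other genotype. The tests were also tested on simulated data. No 2 libraries held identical counts.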

Additional observations from a re-analysis of the deposited data

How the results depend on the processing

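Hs3st3b1 was called in all 16 alternatives run, with log2 fold changes of 3.25 to 4.05 and adjusted p of 1.84e-20 (DESeq2) to 0.0494 (edgeR without WT 3). All 16 refit the libraries by which the gene was chosen, so these calls only describe it. The number of genes called in the main fit was 11. It was 775 with DESeq2, 46 with voom, 397 with no filter, and 21 with at least 5 CPM in at least 3 libraries. Without WT 4 and KO 3 it was 590. With 1 library left out it was 7 to 284 (7 without WT 1, 284 without WT 4, 217 without KO 3). Heparan sulfate genes called were 1 (Hs3st3b1), 3 with DESeq2 (with Slc35d2 and Sulf2), 6 without WT 4 and KO 3 (with Gpc3, Hs6st1, Papss2, Sdc4 and Slc35d2), and 1 to 3 with 1 library left out (Papss2 and Sdc4 joined without WT 4). The median log2 fold change of the 35 other pathway genes, 0.04, was -0.01 with library sizes only, 0.09 with DESeq2, -0.01 with the 5 CPM filter and -0.04 to 0.06 with 1 library left out. WT 4 and KO 3 lie nearest the other genotype, so leaving them out widens the gap by construction and supports no call.

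Genes near 0 changed sign. B3gat3 (-0.00) was 0.00054 with upper-quartile factors, 0.018 with voom, 0.013 with the 5 CPM filter, 0.14 without WT 4 and KO 3, and -0.066 to 0.077 with 1 library left out. Ugp2 (-0.00) was 0.0018 with upper-quartile factors, 0.016 with the 5 CPM filter, 0.050 without WT 4 and KO 3, and -0.047 to 0.076 with 1 library left out. Ndst1 (0.01) was -0.035 with library sizes only, -0.0068 with no filter, and -0.12 to 0.14 with 1 library left out. The causes were not tested.

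With the replicate number as a block, 430 genes and 2 heparan sulfate genes were called (Hs3st3b1 at 3.84 and Papss2 at 3.89), and B3gat3 was 0.077. WT 4 is the only library with its number, so this block takes it out of the genotype difference. As with leaving WT 4 out, that widens the gap by construction and supports no call. The numbers do not pair the libraries: deviations of same-numbered libraries correlated at -0.01, 0.14 and -0.02, and not every library correlated best with its own number. At most 36 reads per library lay behind the values of Hs3st1, Sdc4, Hs3st6, Papss2, Stab1 and Tmem171, so their fold changes are loosely bounded. Under the 5 CPM filter Hs3st3b1 was kept only through its KO libraries, and genes such as Sdc4 and Hs3st1 gave no value; Gpc3 gave none without WT 4, and Stab1 had no adjusted p in DESeq2.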

Other observations

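Some chondroitin sulfate genes had too few reads to be tested but did not overlap between genotypes, and were chosen after their values were seen. Chst11, a chondroitin 4-O-sulfotransferase, had 1, 0, 0 and 3 reads in WT and 12, 14 and 6 in KO. Csgalnact1, which starts the chondroitin chain on the linker, had 0, 2, 1 and 4 reads in WT and 10, 13 and 6 in KO. Their more abundant relatives Chst12 and Csgalnact2 (26.9 and 22.3 CPM) had lower means in KO. Tgfbr3, a co-receptor that can carry heparan sulfate, had 0, 0, 4 and 3 reads in WT and 11, 7 and 4 in KO. In its lowest KO library it had as many reads as in its highest WT library, and the groups separate only after scaling.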
